A study of Mus musculus with 18 samples.

Results

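Nsd1-KO mESCs at day 4 of differentiation were compared with WT mESCs at day 2, a comparison across days that asks which genes of the later KO cells lie where the earlier WT stage had them and which do not. The 4 KO libraries (KO-1 and KO-2, 2 biological replicates each) and the 2 WT libraries are 6 of the 18 RNA-seq libraries of the series, chosen by genotype and day alone. All groups were E14 mESCs, a line derived from a mouse blastocyst. KO-1 and KO-2 are 2 independent clonal lines with a homozygous deletion of Nsd1 exon 5 made by CRISPR-Cas9. By the study's text the deletion was made in mESCs with a 3×Flag cassette knocked in at the end of Nsd1, and whether the WT libraries came from cells with that knock-in is not stated by the labels. WT and KO cells were grown with LIF on a MEF feeder layer until day 0, and then both were withdrawn and the cells were kept as a monolayer for 2 days (WT) or 4 days (KO). Genotype and days without LIF therefore both differ between the groups, and their parts cannot be told apart in this comparison alone. Libraries of WT day 0 and WT day 4, 2 of each, give the WT course. No label says that replicates came from separate cultures beyond the word biological, so p-values measure the spread between these samples.

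Nsd1 writes mono- and dimethylation on lysine 36 of histone H3 (H3K36me2), a mark of intergenic and genic chromatin that limits the spread of the Polycomb mark H3K27me3 and recruits DNA methyltransferases. When mESCs lose LIF, they leave naive pluripotency, pass through a formative state that resembles the epiblast around implantation, and then enter primed and primitive streak-like states. Naive factors such as Esrrb and Klf4 fall first, formative genes such as Fgf5, Otx2 and Pou3f1 rise and fall in between, and T, Mixl1 and other streak genes come last. A pure delay would place KO cells of a later day on an earlier WT stage for all of these groups. That stage need not be among the sampled days and could lie between them. A difference from a sampled WT day is therefore not a difference from every WT stage, and a delay was not tested.

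Counts on genes were 9309874 and 9356867 in the WT day 2 libraries and 13772529, 23362270, 21184172 and 16489159 in the KO day 4 libraries (in the order KO-1, KO-1, KO-2, KO-2, which holds for all lists of 4 values here). The WT day 2 libraries were the shallowest of the series. The deposited values are variance stabilized (VST) on a log2 scale, and inverting the transformation gave normalized counts, that is counts divided by the size factor of the library. Levels are given as normalized counts, and differences as KO day 4 minus WT day 2 on the VST scale with the standard error of limma unless another scale is named. The VST compresses weak genes: a difference of 0.58 stands for a 1.56-fold change at 5000 normalized counts, 1.76-fold at 1000 and 3.17-fold at 100. A gene was called higher or lower at an adjusted p under 0.01 and a difference over 0.58, the thresholds of the study. It was termed close when the 95% confidence interval of its difference lay within ±0.58 and its mean was at least 50 normalized counts. Both terms say nothing of genes that meet neither. Adjusted p-values below are from limma with Benjamini-Hochberg adjustment over 20703 genes. Unadjusted p-values and those of exact permutation are named as such.

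The targeted gene was lower in the KO libraries. Nsd1 (ENSMUSG00000021488) had 2773 and 3344 normalized counts in WT day 2 and 1103, 910.1, 575 and 684 in KO day 4, a difference of −1.41 (SE 0.11, adjusted p = 3.96e-09, limma). The groups did not overlap, and KO-1 lay above KO-2. The count covers all exons of the gene and does not read exon 5 by itself, so it checks the label only through the level of the remaining transcript.

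Across all genes, 844 were called higher in KO day 4 than in WT day 2 (4.08% of 20703) and 513 lower (2.48%). Regardless of any test, the WT values were exceeded by each of the 4 KO values in 25.1% of genes and undercut by each in 29.8%. The same fit called 2256 genes between KO day 4 and WT day 0 (10.9%) and 1569 between KO day 4 and WT day 4 (7.58%), 3 comparisons that share the KO libraries. The root mean square difference of a KO day 4 library over the 11387 genes with a mean of at least 50 was 0.389 to 0.439 from the WT day 2 mean, 0.434 to 0.469 from WT day 4 and 0.495 to 0.526 from WT day 0. By this distance WT day 2 was the nearest WT stage of each KO library, also on the scale of log2(normalized count + 8) (0.839 to 0.885 from WT day 2 and 0.961 to 1.01 from WT day 4, a scale applied to distances after seeing the data). The distance on the VST scale was well above the 0.111 between the WT day 2 replicates. With limma-voom, run on counts recovered from the VST values, 2291 genes were called higher (11.1%) and 2884 lower (13.9%), a share higher of 44.3% in place of 62.2%, with the median difference of all genes at −0.13 in place of −0.01. The order of the counts of calls turned there, with 5175 genes called against WT day 2 and 4957 (23.9%) against WT day 4. It turned too on the VST scale at an adjusted p under 0.05 without the size threshold (limma). There 4608 genes were higher and 5024 lower than in WT day 2, and 7700 were called against WT day 4. With log2(normalized count + 8) these numbers were 2697, 3139 and 4727. The limma-voom counts of the gene lists below stand beside the 11.1% higher and 13.9% lower of all genes.

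**Figure D1:**
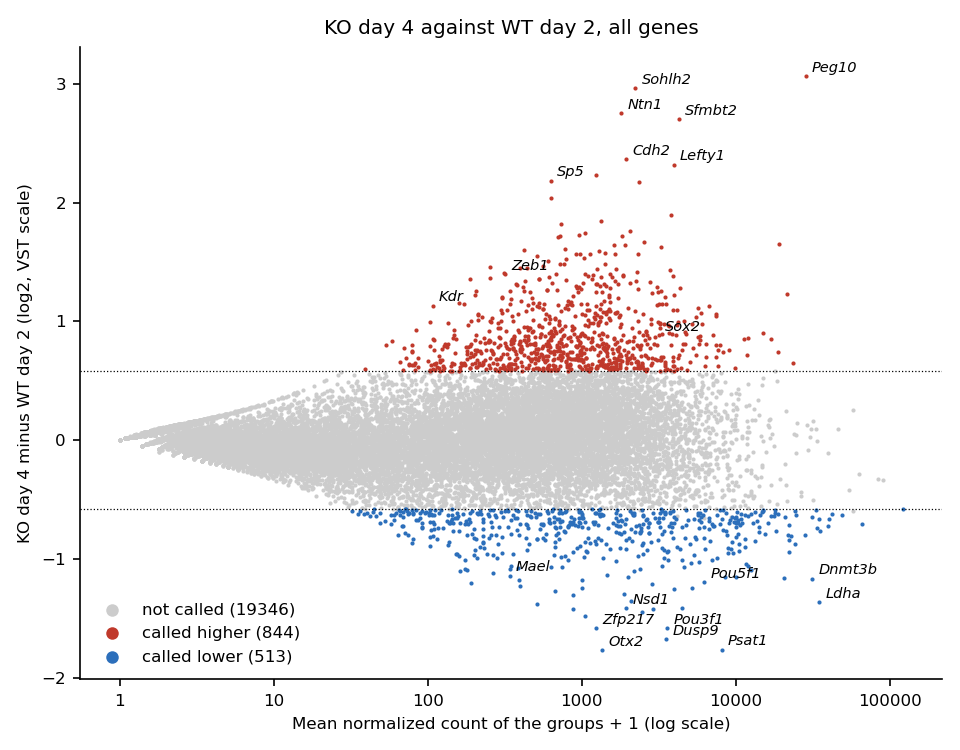
KO day 4 minus WT day 2 on the VST log2 scale (vertical axis) against the mean normalized count of both groups plus 1 (horizontal axis, log scale), 1 point per gene, with the 844 genes called higher in red, the 513 called lower in blue and dotted lines at ±0.58. Differences shrink toward 0 below about 100 normalized counts, and the labelled genes reach 3.07 (Peg10) and −1.77 (Otx2).

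Leaving out clone and model names, the largest rises were in Peg10, Sohlh2, Ntn1, Sfmbt2 and Cdh2. Peg10, an imprinted gene of retrotransposon origin that is needed in the placenta, had 5017 and 5721 normalized counts in WT day 2 and 74036, 57008, 36637 and 39086 in KO day 4 (3.07, SE 0.19, adjusted p = 1.04e-10, limma). Its WT day 4 mean was 50145, within the range of the KO libraries. Ntn1, the secreted guidance cue netrin-1, had 149.9 and 110.2 and 3799.9, 3808, 3147 and 3198 normalized counts in the same order (2.75). Sfmbt2, an imprinted Polycomb-related gene, had 645 and 789 and 9945, 8341, 6342 and 6744. Ntn1 and Sfmbt2 lay above the WT libraries of every day, while Cdh2 (N-cadherin) did not, with 291 ± 15.0 normalized counts in WT day 2, 3577 ± 317 in KO day 4 and 6457 ± 318 in WT day 4 (SD, n = 2, 4 and 2).

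By the same rule the largest falls were in Otx2, Psat1, Dusp9, Zfp217 and Pou3f1. Otx2, a transcription factor of the formative and anterior epiblast, had 2275 and 2415 normalized counts in WT day 2 and 448, 501, 207 and 248 in KO day 4 (−1.77, SE 0.18, adjusted p = 1.03e-07, limma). Psat1, an enzyme of serine synthesis, had 12891 and 12793 and 3308, 3385, 3355 and 3336 (−1.76), 3.84-fold lower in the KO mean. Dusp9, a phosphatase that restrains ERK signalling in mESCs, had 5459 and 5888 and 1451, 1495, 1366 and 1195 (−1.68). Zfp217, a zinc finger protein of corepressor complexes, had 1972 and 2251 and 471, 411, 302 and 316 (−1.58). Among these 5 genes Dusp9 and Zfp217 were below every WT library at all days, whereas Psat1 and Pou3f1 were near their WT day 4 means of 3291 and 1776. Otx2 was near its WT day 4 mean of 229 in KO-2 and above it in KO-1.

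Many genes did lie close to WT day 2. Of the 11387 genes with a mean of at least 50 normalized counts, 8822 (77.5%) were close on the VST scale. The compression makes that easy for weak genes: with limma-voom and the same margin, 3701 were close, all of them also close on the VST scale. Of the 3653 genes with a mean of at least 1000 normalized counts, a limit chosen after seeing the data, 2431 were close on the VST scale, 1783 by limma-voom, and 665 were called. Among abundant genes of the lists used here, Ctnnb1 (β-catenin) had 9397 and 9349 normalized counts in WT day 2 and 10272, 10039, 9793 and 9834 in KO day 4, a difference of 0.09. Sdha, a subunit of respiratory complex II, had 5467 and 5747 and 5969, 5885, 5431 and 5696 (0.03). Dusp6, an ERK phosphatase that rose to 7419 in WT day 4, had 2170.5 and 2042 and 1784, 1769.5, 2598 and 2334. Both KO-1 libraries lay below and both KO-2 libraries above the WT libraries, so the groups overlapped only with the clones pooled. Lef1, a transcription factor of the Wnt pathway, had 428 in WT day 2, 386 in KO day 4 and 1050.0 in WT day 4.

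To place the KO libraries on the WT course without the WT day 2 libraries, stage genes were taken from WT day 4 against WT day 0 (adjusted p under 0.01, difference over 1). They were 434 falling genes (2.1% of all genes) and 590 rising genes (2.85%). A library's position was the median over these genes of its distance from the WT day 0 mean as a percentage of the way to the WT day 4 mean. On the falling genes the WT day 2 libraries stood at 69.1% and 66.5%, and the KO day 4 libraries at 62.5%, 64.0%, 69.1% and 69.8%. These groups overlapped, with means of 67.8% ± 1.85 (SD, n = 2) and 66.3% ± 3.64 (SD, n = 4, 2-sided exact permutation p = 0.733). The overlap came from pooling the clones: both KO-1 libraries lay below both WT libraries. Both KO-2 libraries were level with or above the higher WT library. On the rising genes the WT day 2 libraries stood at 22.8% and 23.3% and the KO day 4 libraries at 45.9%, 44.9%, 42.6% and 42.0%. Here all KO libraries were further along than both WT libraries, by 20.8 percentage points in the mean (exact permutation p = 0.067, 2-sided, the smallest that 4 libraries against 2 can give). At day 2 the KO means were 42.4% on the falling and 16.6% on the rising genes.

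The difference on the falling genes turned with their choice, the scale and the clone. With KO-1 alone it was −4.54 points and with KO-2 alone 1.66 points. With both clones the difference was −8.38 points for falling genes past a difference of 2 (KO behind WT day 2). It was 14.5 points for falling genes chosen and measured on the recovered counts (KO ahead), beside −1.44 above. On the rising genes the KO mean stayed ahead in every setting tried, by 16.1 to 32.1 points.

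**Figure D2:**
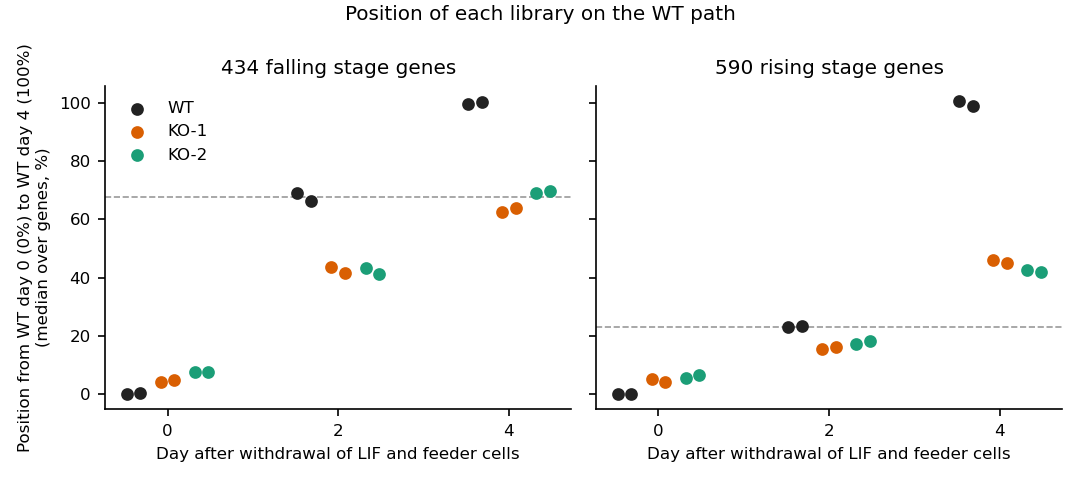
Position of each of the 18 libraries between the WT day 0 mean (0%) and the WT day 4 mean (100%), as the median over 434 falling genes (left) and 590 rising genes (right), by day on the horizontal axis, 1 point per library, with points of a day set apart by line. The dashed line is the WT day 2 mean, which the KO day 4 libraries straddle on the left (62.5% to 69.8%) and exceed on the right (42.0% to 45.9%).

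Gene by gene, the falling stage genes of KO day 4 scattered around WT day 2, and the rising ones were shifted toward higher levels. Of the 434 falling genes, 62 were called higher in KO day 4 than in WT day 2 (14.3%), 54 lower (12.4%) and 223 were close, with a median difference of 0.02 and quartiles of −0.28 and 0.36. Of the 590 rising genes, 165 were called higher (28.0%), 21 lower (3.56%) and 265 were close, with a median of 0.29 and quartiles of −0.01 and 0.63. Among all genes the shares were 4.08% and 2.48%. With stage genes chosen and tested by limma-voom, 355 of 2767 falling genes were higher (12.8%) and 646 lower (23.3%), so that their balance turned, beside 11.1% and 13.9% of all genes. Of 2496 rising genes 693 were higher (27.8%) and 320 lower (12.8%). The falling genes called higher included Esrrb, Nanog, Klf2, Tfcp2l1 and Sox2, and those called lower the amino acid and tRNA synthetase genes Psat1, Asns, Psph, Sars and Yars (examples picked after their values were seen).

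Naive pluripotency factors were higher in KO day 4. Of the 15 on the list, 10 were called higher, 1 lower and 3 were close, with a median difference of 0.95 beside −0.01 for all genes. Esrrb, a nuclear receptor of the naive network, had 437 and 419.8 normalized counts in WT day 2 and 2182, 2064, 1707 and 1631 in KO day 4 (1.36, SE 0.08, adjusted p = 2.38e-11, limma). Tfcp2l1, a LIF target, had 227 and 303 and 2788, 2317, 951 and 1105 (1.53), a call that a fit of the 6 libraries alone did not make (adjusted p = 0.0152, limma). In both genes every KO library exceeded both WT libraries, and for Tfcp2l1 the KO-1 libraries were more than 2000 and the KO-2 libraries near 1000. Nanog (1.28), Klf2 (1.24), Nr5a2 (1.07), Zfp42 (1.04) and Klf4 (1.00) also rose. Klf4 is a case of weak expression on both sides, with 97.8 and 113 and 755, 788, 454 and 418 normalized counts beside 7769 in WT day 0. The levels were far from those of day 0 in the KO lines themselves: Esrrb was at 13567 in KO day 0, 2718 in KO day 2 and 1896 in KO day 4.

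Fgf4, a ligand secreted by naive cells that was counted on the same list, went the other way, from 1319 ± 61.3 (SD, n = 2) to 626 ± 118 normalized counts (SD, n = 4, −0.69), a call lost with KO-1 alone. Klf5 and Nr0b1 were close by the interval rule. Nr0b1, however, had 61.8 ± 18.6 normalized counts in WT day 2 (SD, n = 2) and 111 ± 25.7 in KO day 4 (SD, n = 4), a level at which the VST hides a change of this size, and limma-voom put its difference at 0.88.

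The core factors did not move as a block. Of the 14 core pluripotency genes, 1 was called higher, 3 lower and 6 were close (median 0.14). The balance turned with scale and clone, with 5 higher and 3 lower by limma-voom, and 3 higher and 1 lower with KO-2 alone. Sox2 rose, with 2032 and 2063 normalized counts in WT day 2 and 4083, 4208, 4546 and 4337 in KO day 4 (0.89, SE 0.06, adjusted p = 2.62e-10, limma). Pou5f1, which encodes OCT4, the partner of SOX2 on DNA, fell, with 9384 and 8388 and 3252, 3627, 3755 and 3515 (−1.19, SE 0.08, adjusted p = 7.21e-10, limma). Neither gene had overlapping groups. KO day 4 was below WT day 4 as well in Pou5f1 (5417 in WT day 4 and 3537 in KO day 4, −0.54), while Sox2 stood between its WT day 0 and WT day 2 levels. Utf1, a chromatin factor of pluripotent cells, fell by 0.82, a call that was lost with KO-2 alone, in a fit of the 6 libraries alone and without WT day 2 replicate 1 (Utf1 at −0.76, adjusted p = 0.0183, limma). The close members Trim28 and L1td1 differed by 0.10 and 0.17. Without WT day 2 replicate 1 the number of core genes called lower was 1.

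Formative epiblast genes were lower in KO day 4 than in WT day 2. Of 16 on the list, 10 were called lower, 0 higher and 3 were close, with a median of −0.70. The number called lower was 7 with KO-1 alone, 11 with KO-2 alone and 7 without WT day 2 replicate 2. Pou3f1 (OCT6), a POU factor that binds formative enhancers, had 5645 and 5713 normalized counts in WT day 2 and 1388, 1611, 1518 and 1530.4 in KO day 4 (−1.58, SE 0.06, adjusted p = 2.63e-13, limma). Fgf5, the classic ligand of this state, had 1674 and 1467 and 631, 663, 239 and 246 (−1.18), and KO-1 lay above KO-2. A fit of the 6 libraries alone did not call it (adjusted p = 0.0108, limma). Cldn6, a tight junction protein, had 3965 and 3692 and 1184, 1375, 871 and 812 (−1.45). Over the KO course Fgf5 went from 2.58 at day 0 through 107 at day 2 to 445 at day 4, so that no sampled KO day reached the WT day 2 level of 1570.2. The highest KO mean of Otx2 was 515, at day 2, against 2345 in WT day 2. Sall2 was close, with 2961 in WT day 2, 2697 in KO day 4 and 545 in WT day 4. The median of the list against WT day 4 was −0.09, with 3 genes called higher and 4 lower.

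**Figure D3:**
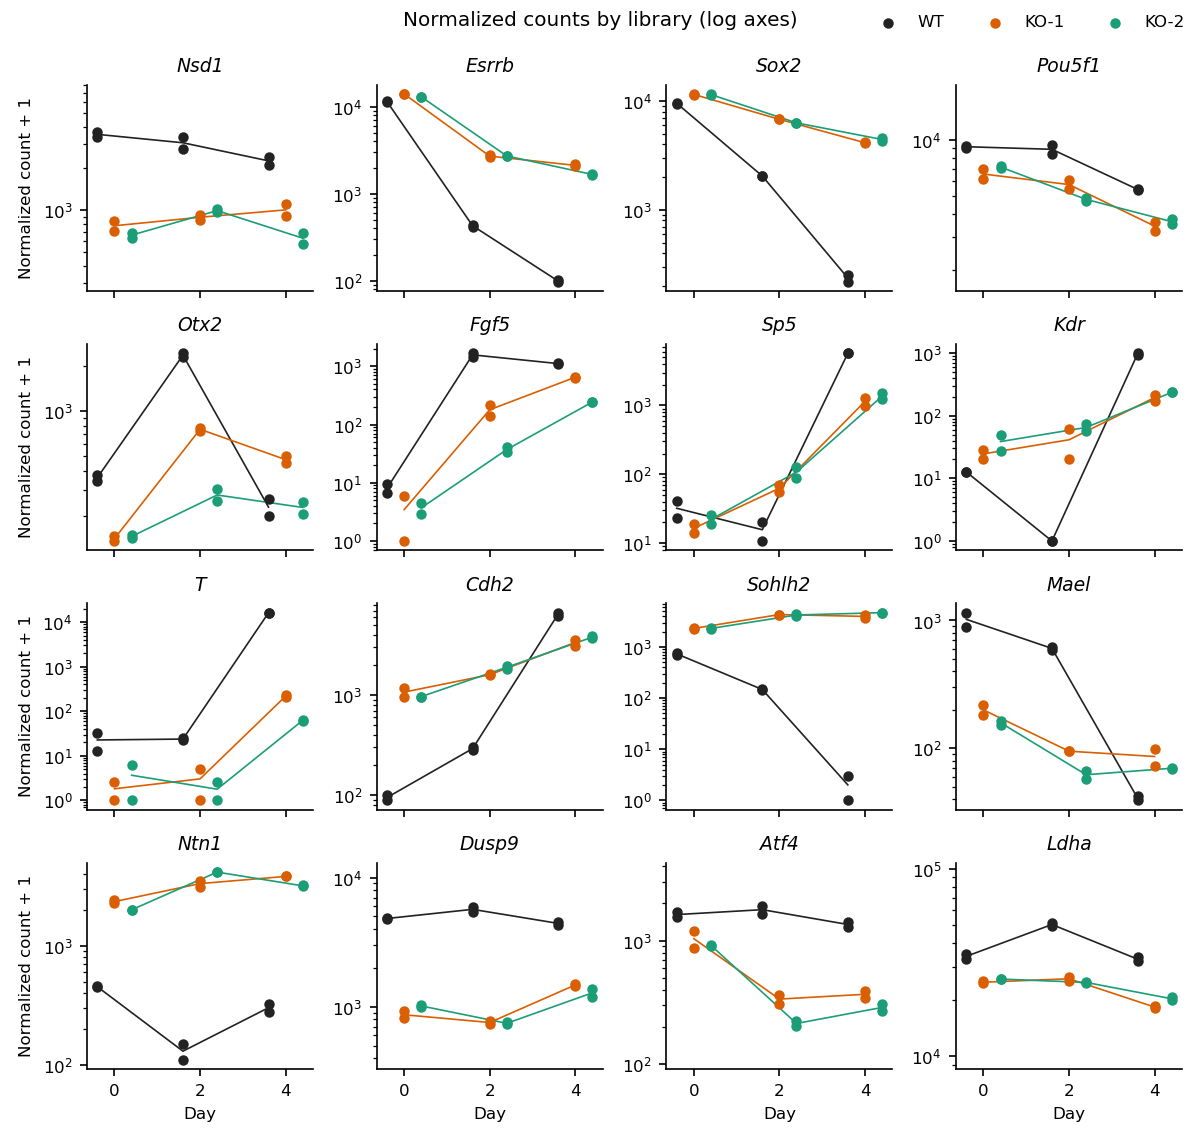
Normalized counts plus 1 (log axes) of 16 genes at day 0, 2 and 4 in WT, KO-1 and KO-2, 1 point per library, with lines through the means of each line and points of a day set apart by line. KO day 4 exceeds WT day 2 in Esrrb, Sox2, Sp5, Kdr, T (not called), Cdh2, Sohlh2 and Ntn1, and lies below it in Nsd1, Pou5f1, Otx2, Fgf5, Mael, Dusp9, Atf4 and Ldha.

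The primitive streak genes had begun to rise in KO day 4, in part of the list. Of 20 genes, 5 were called higher than in WT day 2 and 0 lower, with 8 higher with KO-1 alone and 5 with KO-2 alone, and 18 were called lower than in WT day 4, which shares the KO libraries. Sp5, a direct target of Wnt signalling, had 19.6 and 9.72 normalized counts in WT day 2 and 992, 1289, 1490.2 and 1223 in KO day 4 (2.18, SE 0.09, adjusted p = 2.63e-13, limma), beside 5701 in WT day 4. Wnt3, the ligand that starts the streak, had 137 and 105 and 851, 996, 981 and 929 (1.35). Fgf8, a ligand needed for cells to leave the streak, had 50.5 and 68.1 and 549, 672, 679 and 607 (1.25). Cdx4, a caudal-type homeobox gene of the posterior embryo, had 6.52 and 0 and 295, 275, 443 and 463 (1.35), and with 8.01 in WT day 4 it was above the WT range of all days. Cdx2 rose as well, from 9.75 ± 0.0369 (SD, n = 2) to 204 ± 65.4 (SD, n = 4), below its 1098 in WT day 4.

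The regulators that define the streak in WT day 4 were nearer to their WT day 2 level. T (Brachyury) had 24.4 and 21.1 normalized counts in WT day 2 and 209.7, 226, 60.2 and 62.9 in KO day 4, a difference of 0.50 (SE 0.12, adjusted p = 0.00155, limma) that misses the size threshold on the VST scale, beside 16248 in WT day 4. KO-1 was above KO-2, and both were above WT day 2. Mixl1 had 29.3 and 29.2 and 42.8, 51.3, 22.4 and 39.2, with 6829 in WT day 4, and its groups overlapped. Eomes had 228 and 227 and 576, 574, 232 and 279, with 5637 in WT day 4. Msgn1 had no count in any library of the comparison and 1093 normalized counts in WT day 4. Lhx1 had 4.89 and 9.72 and 11.3, 6.41, 5.60 and 3.65, with 2263 in WT day 4, too few counts in either group to tell a difference.

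Of the 20 developmental TFs that the study followed, 0 were called higher and 0 lower in KO day 4 against WT day 2 by limma on the VST values, 9 had an unadjusted p under 0.05, and 4 were close (Gata4, Nfatc2, Snai1 and Twist1). At the stricter adjusted p under 0.05 without the size threshold, 4608 of all 20703 genes were higher and 5024 lower (limma). The 9 of 20 are thus no excess over all genes. The call of 0 depended on the scale and the clone. With KO-1 alone 2 were called higher, and limma-voom called 1 higher, Snai1, and 5 lower, Gata4, Nfatc2, Sox9, Tbx5 and Twist2. Gata4, a meso-endoderm factor, had 116 and 87.5 normalized counts in WT day 2 and 27.1, 26.9, 39.2 and 47.4 in KO day 4, with 700.2 in WT day 4. Snai1, a repressor of E-cadherin, had 40.7 and 50.2 and 106, 149, 163 and 161, with 1325 in WT day 4. In Gata4 the KO libraries lay below and in Snai1 above both WT libraries. Against WT day 4 the same VST fit called 13 of the 20 lower.

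The mesoderm, endoderm and Hox lists were called on the VST scale about as seldom as all genes (4.08% higher and 2.48% lower). By limma-voom the shares of all genes were 11.1% higher and 13.9% lower. Of 22 mesoderm and cardiac genes, 1 was called, Kdr, the VEGF receptor of early mesoderm, which had 0 and 0 counts in WT day 2 and 216, 170.5, 235 and 233 normalized counts in KO day 4, at least 43.9-fold higher against a floor of 3 counts per WT library. On the recovered counts that list had 2 higher and 6 lower by limma-voom (median −0.38). Of 16 endoderm genes 0 were called in either direction by limma, with a median of 0.03, while limma-voom called 0 higher and 2 lower. In limma 8 of the 16 had an unadjusted p under 0.05, no marked excess over all genes. At the stricter adjusted p under 0.05 without the size threshold, 4608 of 20703 genes were higher and 5024 lower (limma). Of 32 Hox genes 1 was called higher, Hoxd9, with 0 and 2 raw counts in WT day 2 and 49.6, 46.1, 104 and 100.3 normalized counts in KO day 4. That call was lost with KO-1 alone and without WT day 2 replicate 1, KO-2 replicate 1 or KO-2 replicate 2 (Hoxd9 at 0.53, 0.56 and 0.56). The Hox list had 4 higher and 4 lower by limma-voom, near the limma-voom shares of all genes. The neuroectoderm list moved more, with 6 of 19 called higher and 1 lower (median 0.08). Its risers were led by Ntn1 and Cdh2 and included Col2a1, Sox1 and Tubb3. Sox1, an early neural transcription factor, had 22.8 and 30.8 normalized counts in WT day 2 and 505, 520.4, 705 and 662 in KO day 4 (1.41), and in WT day 4 its mean was 3.02. Sox11, another neural factor, fell from 2207 ± 51.4 to 1154 ± 296 (SD, n = 2 and 4, −0.71), a call lost with KO-1 alone and in a fit of the 6 libraries alone. Pax6, the paired box factor of the neural tube, was close.

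The promoters of Sp5 and Cdx4, the streak genes with the largest called rises, are shown as the 250 bases before the start site in RefSeq on GRCm38.p6, another build than the mm39 of the deposited values. CG pairs, the sites of DNA methylation, are in capitals. Sp5 lies at chr2:70474673-70474922, plus strand, and Cdx4 at chrX:103321148-103321397, plus strand.
Sp5: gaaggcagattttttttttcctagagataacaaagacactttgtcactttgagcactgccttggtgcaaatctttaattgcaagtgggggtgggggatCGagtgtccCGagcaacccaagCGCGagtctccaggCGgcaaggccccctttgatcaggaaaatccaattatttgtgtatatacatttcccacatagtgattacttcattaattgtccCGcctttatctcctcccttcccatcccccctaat
Cdx4: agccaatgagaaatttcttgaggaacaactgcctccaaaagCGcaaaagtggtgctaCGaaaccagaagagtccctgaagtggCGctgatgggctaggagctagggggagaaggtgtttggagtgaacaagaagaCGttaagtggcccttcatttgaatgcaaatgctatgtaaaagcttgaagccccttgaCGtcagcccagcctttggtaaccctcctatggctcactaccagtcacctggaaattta
The Sp5 window holds 6 CG pairs and the Cdx4 window 5, beside a median of 6 and quartiles of 2 and 16 over the same windows of 27025 genes.

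Germline genes split. Many of these genes are kept silent in somatic cells by DNA methylation and by repressor complexes that bind the E-box CACGTG. Of 25 on the list, 3 were called higher, 4 lower and 7 were close, with a median of −0.19. The list holds weak genes, and it had 7 higher and 11 lower by limma-voom (median −0.95), beside 11.1% and 13.9% of all genes. Sohlh2, a bHLH factor of early germ cells, had 143 and 149 normalized counts in WT day 2 and 3749, 4157, 4668 and 4698 in KO day 4 (2.96, SE 0.07, adjusted p = 9.34e-17, limma), 29.5-fold higher in the mean. It was at 731 in WT day 0 and 1.01 in WT day 4, so the KO level is not that of any sampled WT day. Piwil2, a PIWI protein of the piRNA pathway, had 186 and 170.2 and 1292, 1243, 1055 and 1150.0 (1.40). Ddx4 (Vasa), an RNA helicase of germ cells, had 557 and 567 and 1536, 1317, 1301 and 1388 (0.82). All 3 were above the WT libraries of every day.

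Mael, another piRNA pathway gene, fell, with 619 and 588 normalized counts in WT day 2 and 72.2, 98.7, 68.6 and 69.3 in KO day 4 (−1.14, SE 0.07, adjusted p = 6.17e-11, limma). Mov10l1, the RNA helicase of that pathway, had 220.0 and 237 and 50.7, 33.3, 35.0 and 33.7 (−0.68). Their WT day 4 means were lower, 40.0 and 9.59. Tuba3a and Zcwpw1 were the other members called lower.

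The promoters of Sohlh2 and Mael, the largest germline rise and fall (Mael added after its values were seen), are at chr3:55181794-55182043, plus strand, and chr1:166238745-166238994, minus strand, in the same build and with CG pairs in capitals.
Sohlh2: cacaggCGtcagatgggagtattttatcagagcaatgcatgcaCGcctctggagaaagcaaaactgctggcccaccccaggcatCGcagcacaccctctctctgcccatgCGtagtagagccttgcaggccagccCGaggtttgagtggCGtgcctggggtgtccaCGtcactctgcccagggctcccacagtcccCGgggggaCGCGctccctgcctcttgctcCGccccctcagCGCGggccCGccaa
Mael: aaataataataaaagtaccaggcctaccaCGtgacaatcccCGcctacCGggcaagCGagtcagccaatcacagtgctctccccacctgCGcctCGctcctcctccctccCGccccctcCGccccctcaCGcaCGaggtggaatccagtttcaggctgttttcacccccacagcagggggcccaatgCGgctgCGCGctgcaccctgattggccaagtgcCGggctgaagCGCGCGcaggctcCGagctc
They hold 14 and 18 CG pairs. CACGTG, a palindrome that reads the same on both strands, is found once in the Mael window and not in that of Sohlh2. Of 23 germline genes with a window, 12 hold it (52.2%), 3 of the 6 called ones among them, against 6.05% of all windows. Piwil2 has no window in the table.

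Genes of the two-cell-like state, a rare state of mESC cultures marked by the Zscan4 cluster, were lower in KO day 4. Of 17 members, 7 were called lower and 0 higher, and 15 lower by limma-voom. Zscan4c had 135 and 175 normalized counts in WT day 2 and 4.51, 0, 9.80 and 3.65 in KO day 4, and Usp17le 155 and 154 and 0, 1.28, 4.90 and 3.65. KO day 4 resembled WT day 4 in level here, with WT day 4 means of 5.17 and 3.03. These genes are near-identical copies whose reads can be split or shared in counting, so the value of a single copy is uncertain.

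Beyond single stages, 192 genes (0.927%) were above and 30 (0.145%) below the WT range at all days, that is called in the same direction against WT day 0, day 2 and day 4 with every KO day 4 library beyond all 6 WT libraries. By limma-voom the numbers were 560 above and 547 below, so that the excess above the range was nearly absent on that scale. At day 0 already, 169 of the 192 had all KO libraries above both WT libraries and 27 of the 30 had all below, as did 23.1% and 24.3% of all genes. The same WT day 0 libraries entered the choice of these genes, which favours that outcome. The genes furthest above were Sohlh2, Ntn1 and Sfmbt2, and Lefty1 and Col2a1, a fibrillar collagen, were among them too. Col2a1 had 477 and 543 normalized counts in WT day 2 and 3671, 3471, 4964 and 4784 in KO day 4, with 208 in WT day 0 and 268 in WT day 4. Tcf12, a bHLH factor, had 911 and 943 and 4221, 4080.0, 4197 and 4198, with 460.2 in WT day 0 and 1649.7 in WT day 4. The genes furthest below were Dusp9, Zfp217 and Atf4, and they included Nsd1 itself, Bcor and the glycolytic genes Ldha, Pgk1 and Tpi1.

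Signalling genes gave a mixed picture that was mostly upward. In the Nodal and Activin pathway 6 of 18 genes were called higher and 0 lower (median 0.42), and 10 higher and 1 lower by limma-voom. The ligand gene Nodal had 1199 and 1170.2 normalized counts in WT day 2 and 2252, 2408, 2253 and 2254 in KO day 4 (0.71). Its feedback inhibitors changed more. Lefty1 had 888 and 917 and 4929, 5466, 9033 and 8587 (2.32, SE 0.16, adjusted p = 3.90e-10, limma), with KO-2 above KO-1, and Lefty2 had 614 and 645 and 2743, 2898, 4148 and 4138 (1.76). The coreceptor gene Tdgf1 and the effector Smad2 were close, at −0.40 and 0.34, both with all KO libraries on one side of the WT libraries.

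In the Wnt pathway 6 of 22 genes were called higher and 2 lower (median 0.22). Besides Wnt3 and Sp5, the receptor gene Fzd10 rose from 251 and 266 to 1809, 1823, 1564 and 1592 normalized counts (1.57). The receptor gene Fzd7 fell from 3795 ± 400.5 to 2195 ± 275 (SD, n = 2 and 4), and the transcription factor gene Tcf7 from 2493 ± 119 to 1369 ± 214. Both of those calls were lost with KO-1 alone, and that of Fzd7 also without WT day 2 replicate 2 (−0.56). The FGF list had 6 of 20 called higher and 4 lower (median −0.03). Its ligands parted, Fgf8 upward and Fgf4 and Fgf5 downward, and among its feedback genes Egr1 rose from 174 and 225 to 956, 966, 913 and 858 (1.10) while Dusp9 fell.

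In the BMP pathway 3 of 22 genes were called higher and 0 lower, and 8 higher and 1 lower by limma-voom. Of all genes limma-voom called 11.1% higher and 13.9% lower. Msx1, a homeobox target of BMP, had 65.2 and 64.8 and 408, 510.2, 651 and 573 normalized counts (1.09) and Id3, an inhibitor of bHLH factors, 319 and 298 and 461, 674, 1100.4 and 1004 (0.70), a call lost with KO-1 alone and in a fit of the 6 libraries alone. In the LIF and STAT3 pathway 6 of 13 were called higher and 0 lower (median 0.50), although both groups had been without added LIF. WT day 4 stood at a similar level on this list, with a median of 0.46 from WT day 2. Against WT day 4 the KO median was −0.11, with 3 called higher and 0 lower. Both chains of the LIF receptor rose. Il6st (gp130) had 805 and 853 and 2972, 2758, 2304 and 2425 (1.20, SE 0.09, adjusted p = 1.67e-09, limma), and Lifr had 199 and 272 and 1072, 931, 654 and 814 (0.95). Il6st had 2860.2 in WT day 4, where it differed from KO day 4 by −0.11 (adjusted p = 0.379, limma). Immediate early genes had 3 of 15 called higher (7 higher and 3 lower by limma-voom), among them Junb with 238 and 276 and 625, 680.0, 859.6 and 727.

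Chromatin genes of the H3K36 and Polycomb lists were close to WT day 2 about as often as all genes with a mean of at least 50 (77.5%). Of 13 H3K36 methyltransferases and demethylases, 10 were close, 2 higher and 1 lower (Nsd1). Nsd2, the paralog of Nsd1 that also writes H3K36me2, had 1845 and 2091 normalized counts in WT day 2 and 5205, 4554, 3869 and 4189.8 in KO day 4 (0.97, SE 0.10, adjusted p = 7.67e-08, limma). The Nsd2 values were above every WT library of the series, whose day means were 1298, 1968 and 2614. Setd2, the H3K36me3 writer, differed by 0.62, a call lost with KO-2 alone, with quantile normalization, in a fit of the 6 libraries alone, without WT day 2 replicate 1 (Setd2 at 0.58) and without KO-1 replicate 1 (0.52). Of 25 Polycomb genes 20 were close. Bmi1, a PRC1 subunit, had 108 and 146 and 457, 423, 367 and 444 (0.68). Phf19, an accessory subunit of PRC2 that reads H3K36 methylation, had 55.4 and 55.1 and 235, 242, 228 and 212 (0.58), a call lost with KO-2 alone and without KO-1 replicate 2 (0.57). Bcor, a subunit of a variant PRC1, fell from 943 and 1062 to 439, 357, 256 and 263 (−0.90).

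The de novo DNA methyltransferases were lower than in WT day 2. Dnmt3b had 42343 and 45174 normalized counts in WT day 2 and 21062, 20040, 17612 and 18055 in KO day 4 (−1.17, SE 0.07, adjusted p = 1.53e-10, limma), with 5907 in WT day 0 and 5779.7 in WT day 4, and it was higher than in WT day 4 by 1.62 (adjusted p = 3.07e-13, limma). Dnmt3a had 9898 and 10127 and 7095, 6679.6, 5848 and 6189.9 (−0.59), just past the threshold. It was not called with KO-1 alone, with centring or quantile normalization, or without WT day 2 replicate 2, KO-2 replicate 1 or KO-2 replicate 2 (Dnmt3a at −0.58, −0.55 and −0.57). Their cofactor Dnmt3l rose instead, from 3811 and 3511 to 4942, 5628, 8645 and 8217 (0.77), with KO-2 above KO-1, a call lost with KO-1 alone and in a fit of the 6 libraries alone. Of the 8 DNA methylation enzymes 3 were close. The oxidase gene Tet3 rose from 476 and 468 to 1275, 1182, 1212 and 1260.4 (0.84) and was above the WT range of all days. Dnmt1 was close, at 0.19. Tet1 was close in the mean of both clones (0.19), but it had 2056 and 2537 in WT day 2 and 4021, 3146, 1904 and 2088 in KO day 4, above WT day 2 in KO-1 and overlapping or below it in KO-2.

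Among metabolic and translation lists, calls in glycolysis, amino acid, tRNA synthetase and cytosolic ribosomal protein genes were mostly or all on the lower side. In glycolysis and glucose uptake 8 of 21 genes were called lower and 2 higher (median −0.35), or 5 and 3 with quantile normalization. Ldha, which makes lactate, had 51139 and 49549.7 normalized counts in WT day 2 and 17979, 18554, 19831 and 20624 in KO day 4 (−1.36, SE 0.07, adjusted p = 6.25e-12, limma), and Pgk1 had 29196 and 27989.7 and 11506, 11869.7, 12954 and 13474 (−1.16). Both were below every WT library of the series. The glucose transporter gene Slc2a3 went the other way, from 12265 and 13014 to 34020.1, 31537, 28379.8 and 28594 (1.23), toward its 39023 in WT day 4.

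A list of amino acid synthesis, uptake and ATF4 target genes, chosen after their values were seen, had 16 of 26 called lower and 0 higher (median −0.69). Atf4, the transcription factor of the amino acid response, had 1919.5 and 1644 normalized counts in WT day 2 and 344, 388, 305 and 267 in KO day 4 (−1.48, SE 0.10, adjusted p = 1.88e-10, limma), below all WT libraries. Besides Psat1, Phgdh, the first enzyme of serine synthesis, fell from 5803 and 5799 to 1898, 1982, 2353 and 2161. Pck2 (−1.42), Mthfd2 (−1.14), Trib3 (−1.12) and Chac1 (−1.08) fell too. In Psat1 and Phgdh, KO day 4 and WT day 4 differed by 0.02 and 0.08. Of 20 cytosolic aminoacyl-tRNA synthetases, also listed after their values were seen, 10 were called lower (median −0.60). Sars had 7054 and 6609.6 and 1917, 2207, 2299 and 2347 (−1.41), while Vars was close with 9075 and 9516 and 8973, 9223, 8628 and 8354 (−0.08). Against WT day 4 the medians of these lists were −0.15 and −0.12, with 4 and 0 genes called lower. In KO day 2 their medians from WT day 2 were already −0.54 and −0.58.

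Of 80 cytosolic ribosomal protein genes, 57 were called lower and 0 higher (median −0.67), a count that depended on the libraries. It was 74 with KO-1 alone, 17 with KO-2 alone, 30 with quantile normalization and 23 without WT day 2 replicate 1. The median of the list was 0.11 and −0.11 in the WT day 2 replicates and −0.93, −0.82, −0.47 and −0.45 in the KO day 4 libraries, relative to the WT day 2 mean. The groups did not overlap, but the WT replicates and the clones each spread. WT day 0 and WT day 4 lay at −0.44, −0.39, −0.48 and −0.49, so that the KO-2 libraries were level with these days and the KO-1 libraries below them. KO day 0 lay at −1.01 to −0.51 and KO day 2 at −0.81 to −0.40, so WT day 2 was the highest group of the series on this list. Against WT day 4 0 of the 80 genes were called by limma, and 12 had an unadjusted p under 0.05. That share was below the one of all genes. At the stricter adjusted p under 0.05 without the size threshold, 7700 of 20703 genes passed against WT day 4 (limma). Rps14 had 19082 and 15362 and 6434, 6712, 8602 and 9448 normalized counts (−1.09). Of 76 mitochondrial ribosomal proteins 63 were close, near the 77.5% of all genes, and 3 were called lower (6 with KO-1 alone, 1 with KO-2 alone, 6 with quantile normalization and 1 without KO-1 replicate 1), but 55 had all KO libraries below both WT libraries (29.8% of all genes did) and 24 were lower by limma-voom. Of 83 electron transport chain genes 15 were called lower, 4 without WT day 2 replicate 1, 27 with KO-1 alone, 5 with KO-2 alone, 23 with quantile normalization and 37 by limma-voom. Of 13 genes of the mitochondrial genome 1 was called higher, mt-Nd5, a call lost with KO-1 alone, in a fit of the 6 libraries alone and without WT day 2 replicate 1 (mt-Nd5 at 0.59, adjusted p = 0.0276, limma) or KO-2 replicate 2 (0.57).

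**Figure D4:**
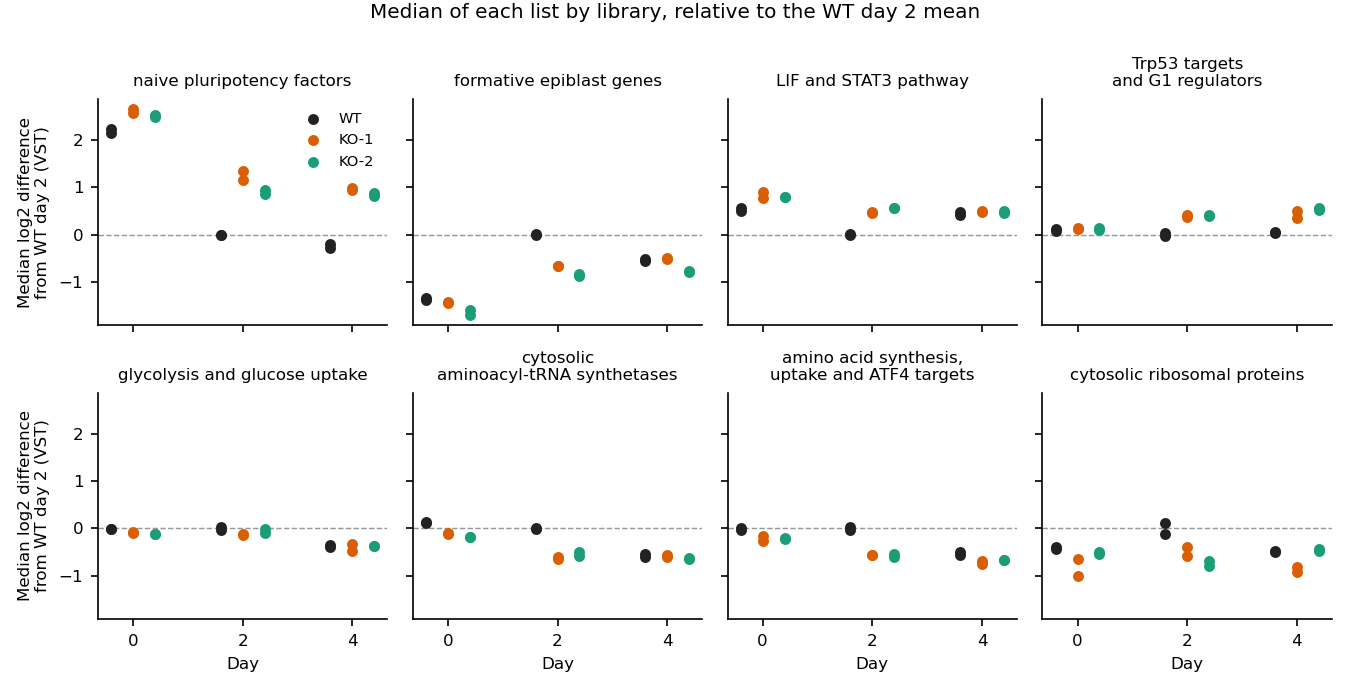
Median log2 difference (VST scale) of 8 gene lists from the WT day 2 mean, by day on the horizontal axis, 1 point per library, in WT, KO-1 and KO-2. Naive factors of KO day 4 lie above WT day 2 (0.82 to 0.98), while formative, aminoacyl-tRNA synthetase and amino acid genes lie below it, as they did in KO day 2. For the synthetases KO day 4 overlaps WT day 4. For amino acid genes KO day 4 (−0.76 to −0.67) lies below WT day 4 (−0.49 and −0.57). For formative genes KO-1 is near WT day 4 (−0.52 and −0.55) and KO-2 below it (−0.77 and −0.79).

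Trp53 targets and G1 regulators had 9 of 22 genes called higher and 0 lower (median 0.48). Cdkn1a (p21), an inhibitor of cyclin-dependent kinases, had 473 and 441 normalized counts in WT day 2 and 2043, 2378, 2759 and 2386 in KO day 4 (1.58, SE 0.08, adjusted p = 1.03e-11, limma). Trp53inp1 had 3679 and 4237 and 11179, 8550.4, 8677 and 9356 (1.13), and Mdm2 and Ccng1 differed by 0.84 and 0.80. Ccnd1 (cyclin D1), a driver of G1 progression, rose by 1.00. Trp53 itself was close, at 0.13, as was Ccne1 (cyclin E1), at −0.27. WT day 2 was the lowest WT day in Cdkn1a, whose WT means were 1663, 457 and 1632 at day 0, 2 and 4.

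Genes of the epithelial-mesenchymal transition moved both ways, with 6 of 15 called higher and 4 lower. The mesenchymal genes Cdh2 and Zeb1 rose, the latter from 29.3 and 29.2 to 692, 511, 591 and 624 normalized counts (1.40). Epcam, an epithelial adhesion gene, fell from 4263 and 4144 to 1435, 1633, 1500.0 and 1387 (−1.21). Vim (vimentin) had 1672 ± 64.9 in WT day 2, 4873 ± 1019 in KO day 4 and 20061 ± 1205 in WT day 4 (SD, n = 2, 4 and 2). Other rising stage genes ahead of WT day 2, picked after their values were seen, were Serpinh1, the collagen chaperone, with 1269, 6364 and 5281 in the same order, the matrix protease Mmp14 with 566, 3094 and 2006, and the fibronectin receptor subunit Itga5 with 773, 2936 and 3927.

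Imprinted genes, another list chosen after their values were seen, had 7 of 30 called higher and 2 lower (median 0.15). By limma-voom 10 were higher and 6 lower, beside 11.1% and 13.9% of all genes. Sgce, the neighbour of Peg10 in the same imprinted cluster, had 86.4 and 68.1 and 457, 553, 497 and 472 normalized counts (0.98). Mest (1.44) and Peg3 (1.09) rose, and Rian, a noncoding RNA, fell from 2811 and 2997 to 1289, 1315, 1457 and 1384 (−0.85). Of 19 hypoxia-response genes, the last list of this kind, 3 were called lower and 0 higher (9 lower by limma-voom), among them Bnip3 from 1685 and 1549 to 436, 342, 399.7 and 415 (−1.24) and Egln3 from 1186 and 1066 to 231, 246, 190.4 and 166 (−1.27), while Hif1a was close at 0.36.

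Because the cells had been on MEF feeders, markers of fibroblasts were followed. Of 13 markers 2 were called higher (Acta2 and Col5a1), 1 lower (Thy1) and 4 were close. Their summed level was 1750.1 and 1618 normalized counts in WT day 2 and 2763, 3165, 4481 and 4155 in KO day 4, beside 12600 and 12022 in WT day 4. By counts the most abundant were Col1a1 in WT day 2 and Col5a1 or Acta2 in KO day 4, and none was at 0 in all 6 libraries. Col1a1 had 459.5 and 408 and 282, 313, 717 and 658, below both WT libraries in KO-1 and above both in KO-2. Thy1 fell from 308 and 271 to 19.2, 21.8, 21.0 and 16.4. The summed level moved with the group, and its part in the rise of matrix genes such as Serpinh1 and Mmp14 was not tested. Of 10 trophoblast markers 1 was called higher (3 by limma-voom), Tfap2c, which mESCs express too, from 76.6 and 84.3 to 829, 955, 618 and 587 (1.29). The trophoblast sum was 502 and 520.3 in WT day 2 and 1257, 1475, 1319.5 and 1238 in KO day 4, with Krt7 and Tfap2c as the most abundant by counts, and its part in any result was not tested. In bulk samples a smaller share of cells of a type and less RNA per cell cannot be told apart.

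Each clone was also compared with the same WT day 2 libraries alone. With KO-1, 986 genes were called higher and 620 lower, and with KO-2, 835 and 446. The day 4 libraries of the clones differed from each other in 52 genes (0.251% of all genes). This count rested on single libraries, with 22 without KO-1 replicate 1, 194 without KO-1 replicate 2 and 21 without KO-2 replicate 1.

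**Figure D5:**
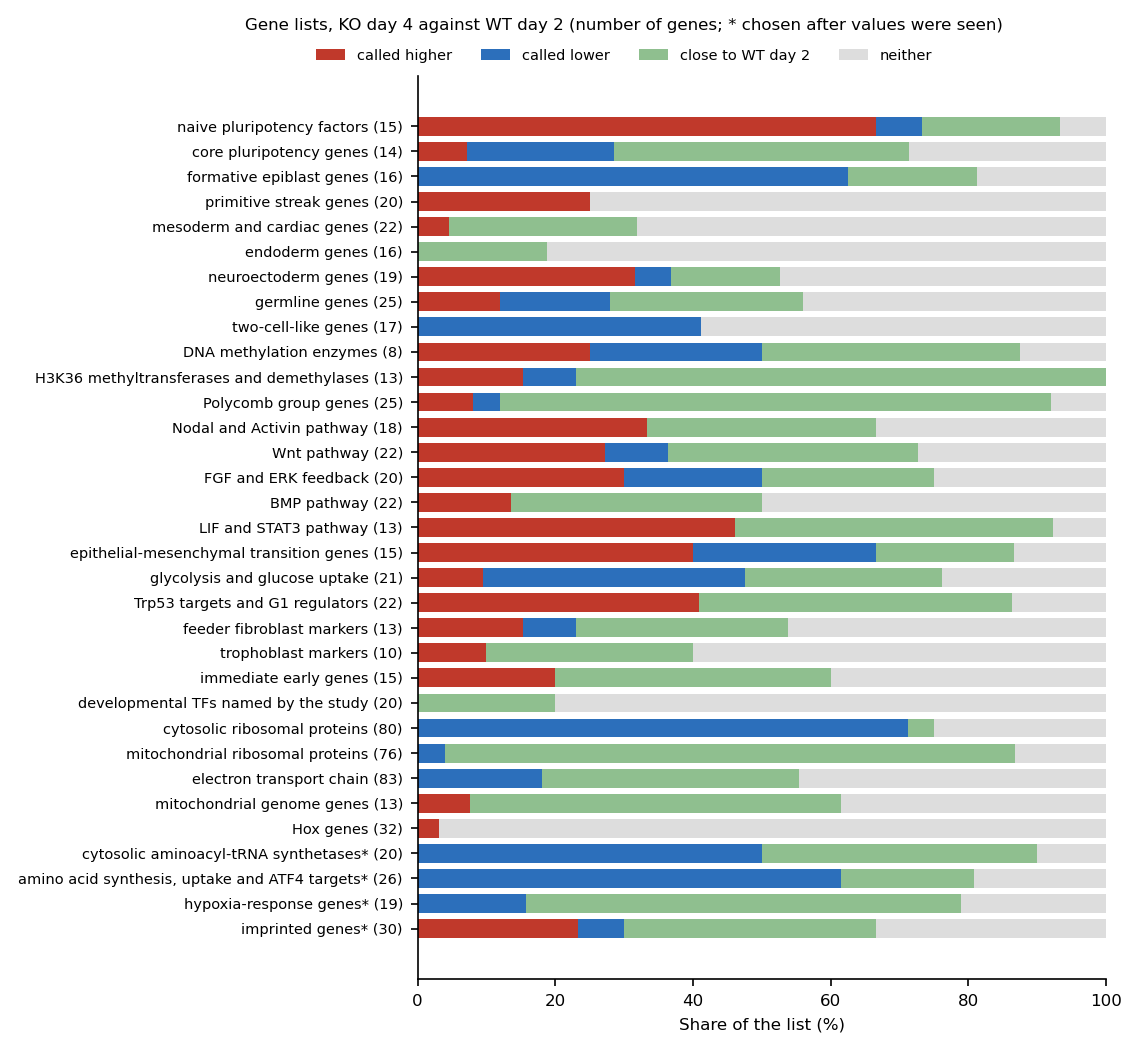
Share of each gene list (horizontal axis, %) called higher, called lower, close to WT day 2 or neither in KO day 4 against WT day 2, with the number of genes in parentheses and an asterisk for lists chosen after the values were seen. The naive list is mostly red (10 of 15), the formative (10 of 16), amino acid (16 of 26) and cytosolic ribosomal (57 of 80) lists are mostly blue, and the green share of the H3K36 (10 of 13) and Polycomb (20 of 25) lists is near the 77.5% of all genes with a mean of at least 50.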

How the data were processed

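RNA-seq of 18 libraries was analysed. By the study's methods and the submitters' processing notes, reads were trimmed with Trim Galore 0.6.7, aligned to mm39 with STAR 2.7.11a and counted with featureCounts 2.0.6, and genes averaging under 1 count were dropped. The authors deposited log2 values made by the variance stabilizing transformation of DESeq2 1.42.0, as 1 table of 20703 genes. Here the transformation was inverted, and 100% of values came out whole within 0.05 counts. Low counts were mostly even, for a reason not found.

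limma 3.58.1 (R 4.3.3, trend) was fitted to the deposited values with 6 groups of genotype and day, and tested on simulated data. limma-voom on recovered counts, other scales, single clones, a replicate block and leaving out each replicate were alternatives. Replicate numbers did not pair the samples. The members, lists and tests were chosen with earlier results of these data known. Named genes are Nsd1, the 5 largest called rises and falls, in each list the 2 largest rises, falls and close genes of highest mean, the 20 developmental TFs, 7 pluripotency genes and the 3 genes furthest above and below the WT range. Others were named after their values were seen: besides those marked in the text, Cdx2, Fgf8, Wnt3, Nr0b1, Ddx4, Tcf12, Col2a1 and further list members. The sequencing depth of 9309874 to 23921193 counts limits weak genes.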

Additional observations from a re-analysis of the deposited data

Results flagged for a closer look

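Among 179 named genes with counts in the 4 KO day 4 libraries, 6 had 1 library far from the other 3 by Dixon's criterion, which chance meets in about 1 of 20 groups. The stray values were 3420 normalized counts of Ccnd1 and 50.7 of Mov10l1 and 69.9 of Nfatc2 in KO-1 replicate 1, and 98.7 of Mael, 2410 of Nodal and 4080 of Tcf12 in KO-1 replicate 2. All lay in KO-1, and no call of Ccnd1, Mael, Mov10l1, Nodal or Tcf12 was lost without a single library.

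The clones differed at day 4 in 9 named genes, by limma with 9 groups of line and day. KO-1 was higher than KO-2 in Tfcp2l1 by 0.971, Peg10 by 0.77, Fgf5 by 0.684 and Tet1 by 0.684. KO-1 minus KO-2 was −0.701 in Grb10, −0.697 in Lefty1, −0.618 in Dnmt3l, −0.612 in Col1a1 and −0.611 in Acta2.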

How the results depend on the processing

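With limma-voom on recovered counts, 2291 genes were called higher and 2884 lower than in WT day 2, 3701 were close, 6904 were called against WT day 0 and 4957 against WT day 4, 560 lay above and 547 below the WT range, 355 falling genes were higher and 646 lower, 693 rising genes were higher and 320 lower, and the position differences were 14.5 (falling) and 16.1 (rising). After thinning to 1 depth the same values were 2432, 2844, 3789, 6520, 4384, 559, 461, 366, 600, 720, 301, 15.3 and 16.8, and with log2(normalized count + 8) they were 2697, 3139, 4099, 6964, 4727, 645, 508, 445, 671, 755, 317, 16.3 and 16.2. These scales undo the compression of weak genes by the VST. With an adjusted p under 0.05 and no size threshold there were 4608 higher, 5024 lower, 10385 and 7700 against WT day 0 and day 4, 1289 above, 937 below, 164 and 139 falling and 346 and 99 rising genes. Position differences were 2.96 (falling) and 18 (rising) with quantile normalization and 23.5 (rising) with centring on the median, and the cause was not tested. The falling position difference thus changed sign, and the rising one did not. Centring put 70.7% of calls on the higher side, quantile normalization 55.9% and log2(normalized count + 8) 46.2%, beside 62.2%.

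Close genes numbered 4330 with a margin of 0.30, 18031 with no minimum mean and 2431 with a minimum of 1000 (chosen after seeing the data). Stage genes past a difference of 2 gave 16 falling genes higher and 9 lower, 34 rising higher and 9 lower, and positions of −8.38 and 24.4. Stage genes with a mean of at least 1000 (chosen after seeing the data) gave 32.1 on the rising genes. No position was computed for the 6 libraries alone or without a size threshold.

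Leaving out each replicate gave 825 to 891 genes higher, 419 to 585 lower, 8083 to 9016 close, 2197 to 2288 and 1555 to 1618 called against WT day 0 and day 4, 184 to 202 above and 26 to 33 below the WT range, 61 to 66 and 50 to 55 falling and 160 to 169 and 19 to 23 rising genes, and positions of −2.74 to −0.134 and 20.1 to 21.4. Where a lone library remained it was assumed to vary like the other groups. Between the clones 52 genes became 462 by limma-voom and 21 to 194 without 1 replicate.

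Same-numbered libraries of KO-1 deviated against those of WT and KO-2 (r across genes of −0.40 and −0.46), and those of WT and KO-2 together (0.27). The numbers thus gave no pairing of all lines. The deviations were still correlated between lines, and a block by replicate number does not remove that. With the replicate block 844 genes were higher and 511 lower. Of 184 named genes 108 were called, 91 of them in all 19 alternatives, and none changed direction. Genes that lost a call included Dnmt3a, Dnmt3l, Fgf4, Fgf5, Id3, Setd2, Sox11, Tfcp2l1 and Utf1. The 2 shallow WT day 2 libraries limit the precision of every comparison with WT day 2.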
